A study of Mus musculus with 5 samples.

Results

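The genes described here are 43 genes of DNA replication and cell division, listed by symbol, in lung RNA of A/J mice given interleukin-13 (IL-13) or saline. A gene entered through the probe sets whose platform annotation gave exactly 1 gene symbol, and the probe set with the highest mean log2 intensity over the 5 arrays stood for it. Of the 43 genes, 40 had such a probe set among the 8251 genes on the array, and 34 were bright enough to be tested among 5980 tested genes. Ccne2, Mcm6, Prim1, Rfc4, Bub1 and Kif4 were too dim. Of the 34, Aurka, Aurkb, Kif2c and Pola1 exceeded the filter value of 210.2 on IL-13 arrays alone, Aurka and Kif2c on IL-13 18 and 48 alone, so these 4 had to be brighter there to be tested. None of the 34 passed through saline arrays alone. Tyms, Ccnb1 and Bub1b had no probe set with a single symbol. The 17 replication genes (13 tested) and the 16 mitosis genes (12 tested) are compared with each other, and the remaining genes act at entry into S phase or in several phases.

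The arrays are Affymetrix mouse expression arrays of total RNA whose source is named as murine lung. Each was from A/J mice, an inbred strain, that received their treatment through the trachea. The 2 control arrays followed saline and carry the numbers 6 and 48 in their titles, and the 3 treated arrays followed IL-13 and carry 6, 18 and 48. The labels give these numbers no unit, so each array is named by treatment and number (saline 6, saline 48, IL-13 6, IL-13 18, IL-13 48). Each combination of treatment and number is 1 array. The titles do not say whether an array is a single animal or a pool, nor what age the mice had. The title of IL-13 6 also ends differently from the other 4, and what that ending stands for cannot be told apart from the array itself.

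Cells enter the division cycle when D and E cyclins and their kinases release E2F transcription factors, which switch on the genes for origin licensing, the replication fork and nucleotide synthesis. Genes for the mitotic kinases, the spindle and the anaphase-promoting complex are transcribed later, under a MYB-FOXM1 complex that acts on promoters with CHR and CCAAT elements. Most cells of the adult lung are outside the cycle. In bulk RNA, a lower share of dividing cells and less RNA per dividing cell cannot be told apart.

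Median intensity lay between 324.7 and 358.3 on the 5 arrays, and 59.0% to 61.1% of probe sets exceeded 210.2. Correlations of log2 intensity between arrays, across probe sets that are not independent replicates, ran from 0.913 to 0.956, and those with saline 6 were the lowest (0.913 to 0.923). Saline 6 stood apart by salivary gland genes, whose 7 probe sets summed to 101112 there and to between 574 and 889 on the other arrays. The labelled tissue was checked on its markers. Scgb1a1, the club cell secretory protein, was bright on all 5 arrays. Sftpc, the surfactant protein of alveolar type II cells, read 17170 on IL-13 18 and 2617 on saline 6. On the other 3 arrays it read 194.2 to 300.4. Sftpb, another surfactant protein, read 2113 on IL-13 18, 232.0 on saline 6 and 67.6 to 92.4 on the others. By these genes, saline 48, IL-13 6 and IL-13 48 showed airway with little alveolar signal, although the label is lung. Sftpd and Hopx did not share this order. Clca1, an airway gene induced by IL-13, was at 3120 and 284.6 on saline 6 and 48 and at 21505, 29062 and 22000 after IL-13.

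No gene of the 34 passed the test of IL-13 against saline, but most had a higher mean after IL-13, with a small difference. The mean was higher for 27 genes and lower for 7, and the median log2 difference was 0.23 (range -0.35 to 1.66). Over all 5980 genes, 54.2% had a higher mean and the median was 0.03. In limma (eBayes, 3 IL-13 arrays against 2 saline arrays, Benjamini-Hochberg over all tested probe sets), 0 of the 34 genes had an adjusted p under 0.05, against 0.0334% of all tested genes (2 of 5980). At an unadjusted p under 0.05 there were 6 of the 34 (17.6%; Cdk1, Cdc20, Tk1, Aurkb, Ube2c and Pola1), against 8.3% of all genes. Aurkb and Pola1 are among those that passed the filter through IL-13 arrays alone. The lowest adjusted p among the 34 was 0.388, for Aurkb. All 3 IL-13 arrays exceeded both saline arrays for 8 of the 34 genes, where 14.0% of all genes did so. They fell below both saline arrays for 0 of the 34, where 11.4% of all genes did so. With no filter, the counts were 8 of 40 genes above (14.9% of all 8251 genes) and 0 below (10.1%). Without saline 6, the array with the salivary genes, 19 of 34 genes lay above (26.5% of all genes) and 0 below (27.3%). Without saline 48, 11 lay above (37.4%) and 5 below (27.1%), so the excess over all genes was absent. Without IL-13 6, 16 lay above (23.0%) and 2 below (18.5%).

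The mitosis genes were highest on IL-13 18 and IL-13 48, and the replication genes on IL-13 6 and IL-13 18. Each gene was centred on its own mean log2 intensity, and the median of each class was taken per array. The replication median was -0.03 on saline 6 and -0.27 on saline 48, then 0.21, 0.15 and -0.06 on the IL-13 arrays 6, 18 and 48. The mitosis median was -0.13 on saline 6 and -0.26 on saline 48, then -0.03, 0.29 and 0.20 on the IL-13 arrays 6, 18 and 48. Both classes were low on saline 48. They diverged on IL-13 6, where the mitosis median lay 0.24 below the replication median, and on IL-13 48, where it lay 0.27 above it. The medians of all genes lay between -0.04 and 0.02. Since each of these is 1 array, the divergence has no replicate.

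**Figure D1:**
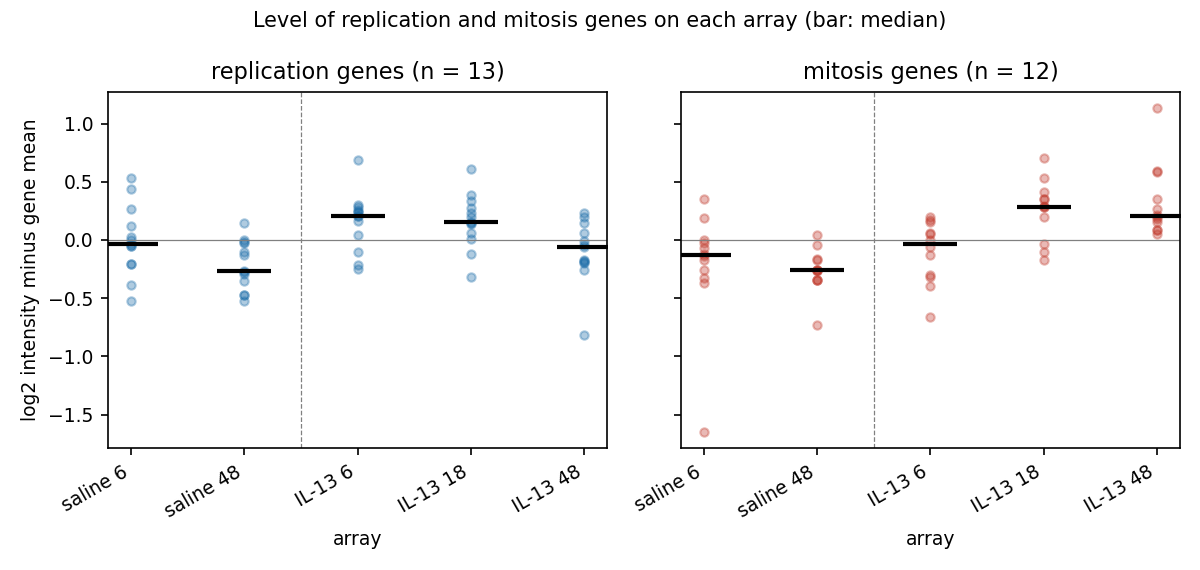
Log2 intensity minus the gene's mean over the 5 arrays (vertical axis) on each array (horizontal axis), for 13 replication genes (left) and 12 mitosis genes (right); points are genes and bars are medians. The replication median is highest on IL-13 6 (0.21), and the mitosis median on IL-13 18 (0.29).

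The same contrast can be counted gene by gene. The counts use the same genes and arrays as the medians, so they are no separate support. IL-13 18 and IL-13 48 were both above the other 3 arrays for 7 of 12 mitosis genes (58.3%), namely Ccnb2, Cdk1, Plk1, Aurka, Aurkb, Kif11 and Kif2c, and for 1 of 13 replication genes (7.7%), Rrm2. Over all genes the share was 14.4%. Of these 7 mitosis genes, Aurka, Aurkb and Kif2c passed the filter through IL-13 arrays alone. For Plk1, the other tested probe set did not share this order and was lowest on IL-13 18. With no filter, the counts were 8 of 14 mitosis genes (57.1%) and 2 of 16 replication genes (12.5%), against 14.4% of all genes. The mean of IL-13 18 and IL-13 48 exceeded IL-13 6 for 10 of 12 mitosis genes (median log2 difference 0.38) and for 4 of 13 replication genes (median -0.10), against 52.2% of all genes (median 0.02). When IL-13 48 was left out, IL-13 18 lay above the other arrays for 5 of 13 replication genes and 9 of 12 mitosis genes, against 1556 of all 5980 genes. The difference between the classes was not tested, since the members were chosen with results of these arrays known.

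The classes also differed in how far IL-13 48 lay above saline 48, where the mitosis median exceeded the replication median by 0.35. On IL-13 18 the excess was 0.18, with similar shares of genes above saline. At title number 6 it was of the same size with the opposite sign (-0.18). IL-13 18 lay above the mean of the saline arrays for 9 of 12 mitosis genes (median 0.51) and 10 of 13 replication genes (median 0.33), where 53.4% of all genes did so. IL-13 48 lay above saline 48 for 12 of 12 mitosis genes (median 0.47) and 9 of 13 replication genes (median 0.12), where 51.1% of all genes did so. Aurka, Aurkb and Kif2c of the 12, and Pola1 of the 13, passed the filter through IL-13 arrays alone, which favoured this direction. With no filter, the medians at 48 were 0.47 for mitosis and 0.20 for replication, and on IL-13 18 they were 0.51 and 0.34. At title number 6, the counts were 6 of 12 (median 0.02) and 7 of 13 (median 0.20), where 54.3% of all genes were higher (median 0.04). That mitosis median was -0.04 with quantile normalization and -0.09 with the mean of all probe sets of a gene, and the replication median was 0.08 with no filter. With saline 6 in place of saline 48 as control of IL-13 48, the replication median was -0.17. The saline arrays themselves differed, with a median of -0.24 for saline 48 minus saline 6 over the 34 genes and 0.06 over all genes. Saline 48 was the brightest array for 0 of the 34 genes, against 20.9% of all genes.

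**Figure D2:**
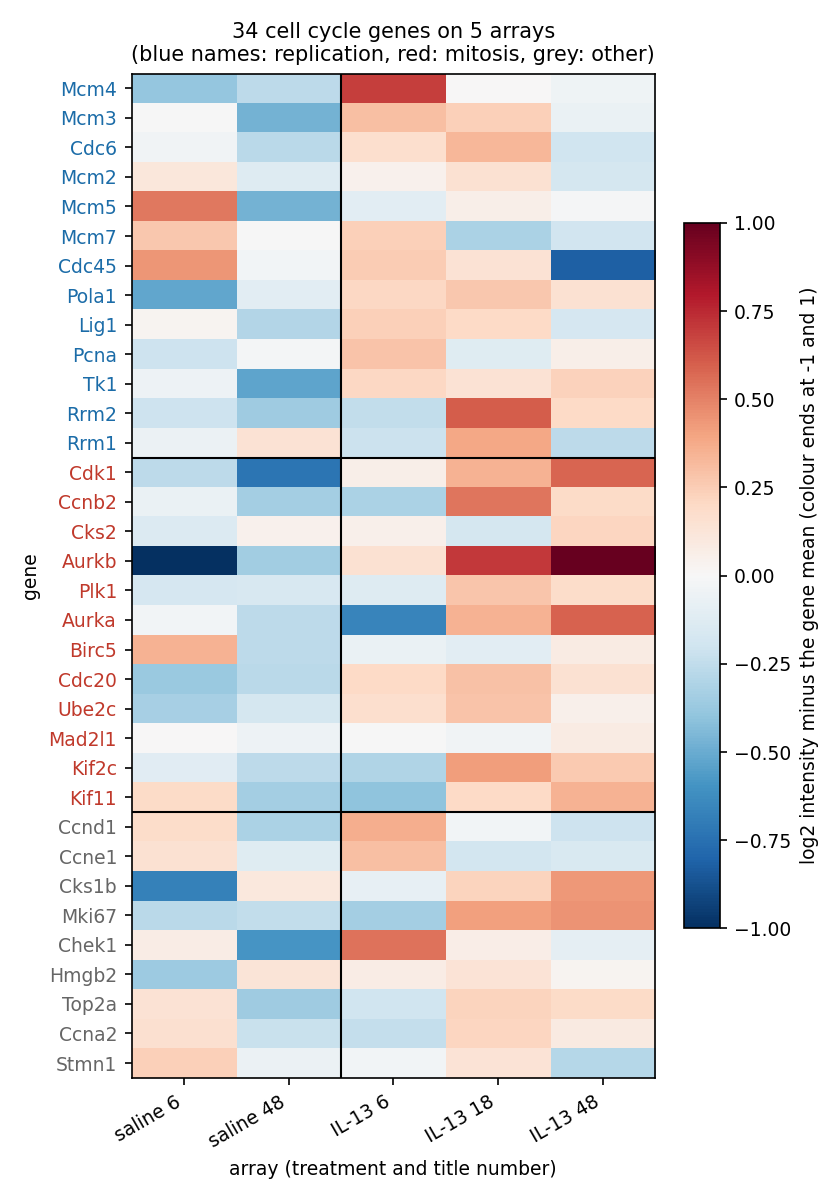
Heat map of log2 intensity minus the gene's mean (colour, ending at -1 and 1) for the 34 tested genes (rows) on the 5 arrays (columns); blue, red and grey names are replication, mitosis and other genes. Among mitosis genes, 5 are brightest on IL-13 18 and 6 on IL-13 48, while 4 replication genes are brightest on IL-13 6 and 5 on IL-13 18.

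Few of these differences reached 2-fold. A gene was counted where the brighter side exceeded the pooled median of 343.1. At title number 6, 1 gene (Mcm4) was at least 2-fold higher after IL-13, against 2.84% of all genes, and 0 were at least 2-fold lower, against 3.09%. Aurkb differed more there (log2 difference 1.80, 82.0 against 286.0), but its brighter side was under the pooled median, so it was not counted. For IL-13 18, set against both saline arrays averaged, 1 gene (Aurkb) was higher, against 1.4% of all genes, and 0 were lower, against 1.4%. At title number 48, Cdk1 and Aurkb were higher, 2 of 34 against 0.719% of all genes, and 0 were lower, against 1.54%. None of these comparisons has a replicate array.

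The promoters of the classes differ in sequence. RefSeq windows on GRCm38.p6, from 250 bases before to 50 after the start of a gene, were matched by symbol for 37 of the 43 genes. Aurkb, Ccna2, Stmn1, Ccnd1, Ccne2 and Mcm4 had no entry. The motifs CHR, CCAAT and E2F were searched on both strands, CCAAT by its own letters, E2F as 4 sequences (TTTCCCGC, TTTCGCGC, TTTGCCGC or TTTGGCGC) and CHR as TTTGAA. These letters do not contain one another. The 150 bases just before the start are printed for 4 mitosis genes (Cdk1, Cdc20, Ube2c, Kif11) and 3 replication genes (Cdc6, Pola1, Pcna), and capitals mark every match. These are examples, and not every mitosis promoter holds CHR letters or every replication promoter E2F letters. Cdk1 lies at chr10:69352913-69353062 on the minus strand, Cdc20 at chr4:118437344-118437493 on the minus strand, Ube2c at chr2:164769779-164769928 on the plus strand and Kif11 at chr19:37376232-37376381 on the plus strand. Cdc6 lies at chr11:98908001-98908150 on the plus strand, Pola1 at chrX:93632156-93632305 on the minus strand and Pcna at chr2:132253181-132253330 on the minus strand.
Cdk1: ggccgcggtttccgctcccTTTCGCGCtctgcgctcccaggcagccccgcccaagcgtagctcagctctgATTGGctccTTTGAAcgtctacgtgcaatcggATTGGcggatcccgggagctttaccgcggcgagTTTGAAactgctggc
Cdc20: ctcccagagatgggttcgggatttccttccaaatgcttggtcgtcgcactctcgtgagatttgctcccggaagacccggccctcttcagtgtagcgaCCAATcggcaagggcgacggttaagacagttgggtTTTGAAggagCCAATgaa
Ube2c: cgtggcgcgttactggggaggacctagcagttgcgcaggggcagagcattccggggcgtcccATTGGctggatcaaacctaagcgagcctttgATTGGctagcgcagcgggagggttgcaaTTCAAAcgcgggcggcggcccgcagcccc
Kif11: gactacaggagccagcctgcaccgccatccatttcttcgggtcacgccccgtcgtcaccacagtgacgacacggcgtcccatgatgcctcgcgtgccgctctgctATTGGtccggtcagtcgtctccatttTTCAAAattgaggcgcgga
Cdc6: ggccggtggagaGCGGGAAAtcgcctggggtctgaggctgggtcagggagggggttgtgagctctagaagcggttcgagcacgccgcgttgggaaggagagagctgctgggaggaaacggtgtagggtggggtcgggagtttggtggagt
Pola1: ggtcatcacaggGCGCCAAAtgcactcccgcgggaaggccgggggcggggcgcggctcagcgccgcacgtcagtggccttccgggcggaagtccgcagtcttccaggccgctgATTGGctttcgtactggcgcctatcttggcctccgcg
Pcna: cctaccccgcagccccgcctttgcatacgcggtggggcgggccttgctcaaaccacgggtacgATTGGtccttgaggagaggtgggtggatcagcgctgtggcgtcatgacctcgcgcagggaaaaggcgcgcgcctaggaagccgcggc

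The Cdk1 stretch holds 2 CHR matches, which begin 71 and 15 bases before the start, and an E2F match at 131. In Cdc20 the CHR match begins 18 bases before the start, in Ube2c 29 bases and in Kif11 19 bases. In each of these 4 promoters a CCAAT match lies upstream of a CHR match. The Cdc6 and Pola1 stretches each hold an E2F match that begins 138 bases before the start and no CHR match. In Pcna a CCAAT match is the sole match of the printed stretch.

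The CHR letters were in 10 of 15 mitosis promoters (66.7%) and 2 of 16 replication promoters (12.5%, Cdc45 and Mcm2), against 14.7% of the 4795 tested genes with a window and 20.2% of all 27025 genes in the table. The E2F letters were in 7 of 16 replication promoters (43.8%, Cdc6, Mcm3, Mcm5, Mcm6, Mcm7, Lig1 and Pola1) and 1 of 15 mitosis promoters (6.7%, Cdk1), against 4.8% of tested genes and 2.6% of all genes. CCAAT was in 12 of 15 (80.0%) and 11 of 16 (68.8%), against 42.9% and 41.1%. A match is a description of letters and not a binding site. The 14 tested genes with CHR letters had a median log2 difference between the mean of IL-13 18 and 48 and IL-13 6 of 0.40 (11 higher), and the 15 without them -0.03 (6 higher). The tested CHR genes include mitosis genes, and also Cdc45 and Mcm2 of replication and Mki67, Top2a, Cks1b and Hmgb2 of the remaining genes. The split therefore overlaps the class contrast and is not independent of it. For IL-13 against saline the medians were 0.30 (13 of 14 higher) and 0.19 (10 of 15 higher).

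**Figure D3:**
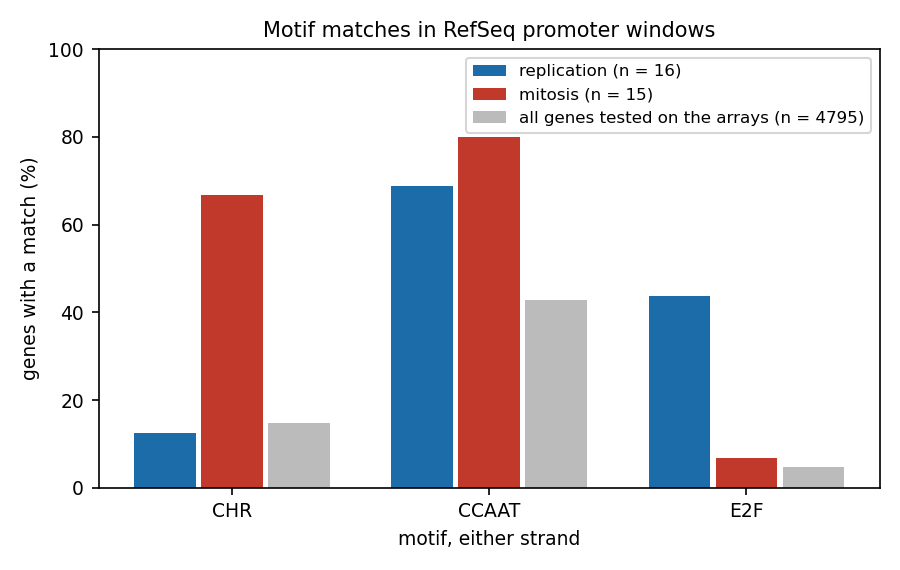
Percent of genes (vertical axis) whose RefSeq promoter window holds CHR, CCAAT or E2F letters on either strand (horizontal axis), for 16 replication genes, 15 mitosis genes and 4795 tested genes. CHR letters are in 66.7% of mitosis promoters and 12.5% of replication promoters, and E2F letters in 6.7% and 43.8%.

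At entry into S phase, neither measured cyclin differed between treatments beyond its error. Ccnd1 encodes cyclin D1, the growth-factor-dependent activator of CDK4 and CDK6. It read 1571.0 on saline 6 and 1109.1 on saline 48, then 1777.3, 1359.5 and 1199.1 on the IL-13 arrays 6, 18 and 48. Ccne1 encodes cyclin E1, the activator of CDK2 at the start of S phase. It read 564.5, 466.2, 624.1, 447.1 and 456.5 in the same order of arrays. Both were brightest on IL-13 6, and saline and IL-13 values overlapped. The log2 differences were 0.11 ± 0.25 (SE, adjusted p = 0.916 in limma) for Ccnd1 and -0.03 ± 0.22 (adjusted p = 0.974) for Ccne1. Ccne2 lay below the intensity floor of 55.27 on all 5 arrays.

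Among the genes that license and fire origins, Mcm4 had the largest difference, and its helicase partners Mcm2, Mcm5 and Mcm7 lay between -0.22 and 0.01. Mcm4, a subunit of the MCM2-7 helicase, read 401.2 on saline 6 and 436.7 on saline 48, then 846.1, 526.9 and 510.2 on the IL-13 arrays 6, 18 and 48. All 3 IL-13 arrays exceeded both saline arrays, and IL-13 6 was far above the other 4. Its difference was 0.54 ± 0.26 on the log2 scale (adjusted p = 0.592 in limma), and 0.31 without IL-13 6. At title number 6 the log2 difference was 1.08, against 0.22 at 48. Mcm3 read 725.5, 524.3, 896.4, 855.0 and 694.8 on saline 6, saline 48 and IL-13 6, 18 and 48, a log2 difference of 0.39 ± 0.22 (0.16 without saline 48, 0.63 without saline 6). Its other tested probe set gave 0.31 and was also brightest on IL-13 6 (471.0, against 193.5 to 310.1 elsewhere). The groups overlapped for Mcm3.

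The remaining helicase subunits had means near or below those of saline. Mcm5 read 1223.7 on saline 6 and 610.3 on saline 48, then 788.4, 883.1 and 840.9 on the IL-13 arrays 6, 18 and 48. The saline arrays spanned all IL-13 arrays, and the difference (-0.05 ± 0.30) was 0.45 without saline 6 and -0.55 without saline 48. Mcm2 differed by 0.01 ± 0.19 and Mcm7 by -0.22 ± 0.23. Mcm6 was too dim to be tested, at 31.6 to 84.6.

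Of the factors that load and start the helicase, Cdc6, the loader, differed by 0.25 ± 0.22. Cdc45, which joins the helicase at firing, had the lowest difference of the class. It read 302.9 on saline 6 and 219.4 on saline 48, then 266.3, 246.7 and 126.7 on the IL-13 arrays 6, 18 and 48. IL-13 48 was low and the other IL-13 arrays lay between the saline values. The log2 difference was -0.35 ± 0.36 (adjusted p = 0.805 in limma), and -0.01 without IL-13 48. For the 7 tested licensing and firing genes together, 4 had a higher and 3 a lower mean, with a median of 0.01.

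At the replication fork all 3 tested genes had a higher mean after IL-13, by 0.19 to 0.52. Pola1, the catalytic subunit of DNA polymerase alpha, read 157.0 on saline 6 and 209.9 on saline 48, then 259.5, 271.9 and 249.8 on the IL-13 arrays 6, 18 and 48. The groups did not overlap, but both saline arrays were under the filter value, so the gene was tested through its IL-13 arrays alone. The log2 difference was 0.52 ± 0.19 (adjusted p = 0.522 in limma), with a range of 0.31 to 0.73 when any array was left out. Pcna, the sliding clamp, read 1519.8, 1734.3, 2134.4, 1616.2 and 1831.0 in the order saline 6, saline 48, IL-13 6, 18 and 48. It was brightest on IL-13 6, overlapped between treatments, and differed by 0.19 ± 0.19. Lig1, which joins Okazaki fragments, differed by 0.22 ± 0.21. Prim1, a primase subunit, read 73.1 to 145.1 and was not tested. Rfc4, of the clamp loader, was not tested either. It lay below the floor on saline 6 (27.3) and read 104.5 to 200.5 on the other 4 arrays.

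Of the genes for nucleotide synthesis, Tk1 and Rrm2 had higher means after IL-13 and Rrm1 did not. Tk1, cytosolic thymidine kinase, read 724.1 on saline 6 and 519.6 on saline 48, then 865.7, 825.9 and 877.4 on the IL-13 arrays 6, 18 and 48. The groups did not overlap, and the difference was 0.48 ± 0.20 (adjusted p = 0.537 in limma), 0.24 without saline 48 and 0.72 without saline 6. Its other tested probe set read 45.1, 255.5, 274.2, 257.0 and 60.6 in the same order and did not show this separation.

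Ribonucleotide reductase has a large and a small subunit, which differed in pattern. The small subunit Rrm2 read 305.4 on saline 6 and 275.1 on saline 48, then 296.8, 536.7 and 403.0 on the IL-13 arrays 6, 18 and 48. IL-13 18 and IL-13 48 were high and the other 3 arrays alike, for a log2 difference of 0.47 ± 0.27 (adjusted p = 0.662 in limma), and 0.25 without IL-13 18. The large subunit Rrm1 read 309.7, 355.2, 276.9, 421.8 and 268.5 in the same order. Its arrays overlapped between treatments, with a difference of -0.07 ± 0.25.

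**Figure D4:**
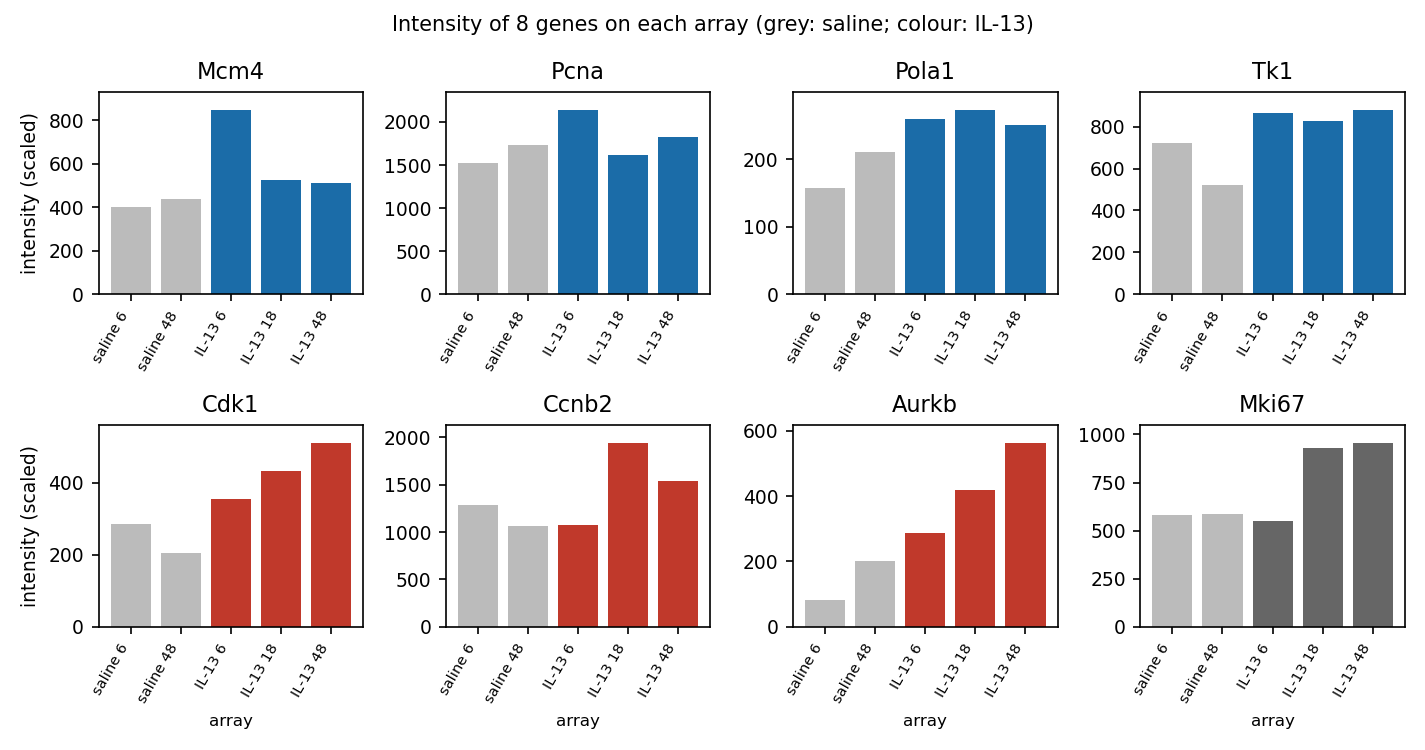
Intensity (vertical axes, from 0) on each of the 5 arrays (horizontal axes) for Mcm4, Pcna, Pola1, Tk1, Cdk1, Ccnb2, Aurkb and Mki67, with saline in grey and IL-13 in colour; each bar is 1 array. Mcm4 (846.1) and Pcna (2134.4) are highest on IL-13 6, and Cdk1 (510.4), Aurkb (562.6) and Mki67 (955.7) on IL-13 48.

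Among Cdk1 and its partners, all 3 tested genes had a higher mean after IL-13. Cdk1, the kinase that drives entry into mitosis, read 285.0 on saline 6 and 205.2 on saline 48, then 355.0, 433.7 and 510.4 on the IL-13 arrays 6, 18 and 48. Every IL-13 array exceeded both saline arrays, and IL-13 6 was the lowest of the 3. The log2 difference was 0.82 ± 0.24 (adjusted p = 0.423 in limma), with a range of 0.59 to 1.06 when any array was left out. Ccnb2, the cyclin B2 partner of Cdk1, read 1280.4, 1059.4, 1075.6, 1939.8 and 1536.0 in the order saline 6, saline 48, IL-13 6, 18 and 48. IL-13 6 lay at the saline level and the other IL-13 arrays above it, for a difference of 0.34 ± 0.28 (0.14 without IL-13 18, 0.57 without IL-13 6). Cks2, a small Cdk-binding protein, read 350.0, 396.3, 399.2, 341.2 and 446.5 and overlapped (0.08 ± 0.19).

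Aurkb, tested through its IL-13 arrays alone, had the largest difference of the 34 genes. It encodes Aurora B, the kinase of the chromosomal passenger complex that corrects kinetochore attachments and drives cytokinesis. It read 82.0 on saline 6 and 201.8 on saline 48, then 286.0, 418.4 and 562.6 on the IL-13 arrays 6, 18 and 48. All IL-13 arrays were above both saline arrays, but the saline arrays were themselves 1.30 apart on the log2 scale. The difference was 1.66 ± 0.44 (adjusted p = 0.388 in limma), a 3.16-fold difference of the means. Leaving out an array gave 1.01 (without saline 6) to 2.31 (without saline 48), and a floor at the 40th percentile gave 0.95. The adjusted p without saline 48 was 0.125, the lowest of any of the 34 genes in the settings tried.

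Another gene of the passenger complex had a different pattern. Birc5, encoding survivin, a partner of Aurora B, read 315.6 on saline 6 and 207.2 on saline 48, then 237.1, 230.2 and 262.6 on the IL-13 arrays 6, 18 and 48. The IL-13 arrays lay between the saline arrays, and the difference was -0.07 ± 0.22. It was the sole tested mitosis gene with a lower mean.

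Plk1 and Aurka, kinases of centrosome maturation and spindle assembly, were brightest on IL-13 18 and 48 by the probe sets that stood for them. Plk1 read 362.3, 364.5, 372.9, 495.1 and 462.3 on saline 6, saline 48 and IL-13 6, 18 and 48. Its groups did not overlap, although IL-13 6 was barely above saline, and the difference was 0.28 ± 0.19 (adjusted p = 0.713 in limma). The other Plk1 probe sets disagreed. One that was tested differed by 0.38, but it read 278.1, 264.3, 402.6, 262.3 and 412.3 in the same order, with IL-13 18 lowest. One too dim to be tested gave -0.62. With the mean of all its probe sets the gene differed by 0.01. Aurka read 176.4, 149.8, 113.4, 228.8 and 270.5 in the same order. IL-13 6 was its lowest array and IL-13 48 its highest, and IL-13 18 and 48 alone carried it past the filter, with a difference of 0.24 ± 0.38.

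The anaphase-promoting complex (APC/C) acts through its activator Cdc20 and its ubiquitin-conjugating enzyme Ube2c, and both separated the treatments. Cdc20 read 601.5 on saline 6 and 645.5 on saline 48, then 891.0, 951.6 and 863.8 on the IL-13 arrays 6, 18 and 48. The 3 IL-13 arrays were close together, above the saline arrays. The log2 difference of 0.53 ± 0.16 (adjusted p = 0.444 in limma) ranged from 0.48 to 0.58 when any array was left out. Ube2c read 204.3, 227.4, 288.2, 311.9 and 265.8 in the same order, also with no overlap, and differed by 0.42 ± 0.17 (adjusted p = 0.531). Its probe set has the ending r_at, which marks relaxed probe selection. Mad2l1, the checkpoint protein that holds back Cdc20, read 493.6, 477.6, 492.6, 481.6 and 523.2, overlapped between treatments and differed by 0.04 ± 0.16. Bub1, a checkpoint kinase, read 14.0 to 90.2 and was not tested.

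The tested kinesins Kif2c and Kif11 were brighter on IL-13 18 and 48 than on the other arrays. Kif2c, a microtubule depolymerase at centromeres, read 188.2 on saline 6 and 170.3 on saline 48, then 166.0, 272.1 and 244.8 on the IL-13 arrays 6, 18 and 48. Kif11, the motor that separates spindle poles, read 255.0, 176.5, 169.4, 256.4 and 284.8 in the same order. For both, IL-13 6 lay just under saline 48, so the groups overlapped, and Kif2c passed the filter through IL-13 18 and 48 alone. Kif11 on saline 6 was close to IL-13 18. The differences were 0.32 ± 0.25 for Kif2c and 0.12 ± 0.29 for Kif11. Kif4, a chromosome-associated kinesin that was not tested, read 160.9 and 153.2 after saline and 173.7, 148.3 and 251.0 after IL-13.

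Among the 7 genes that act in several phases or mark dividing cells, 6 had a higher mean after IL-13 (median 0.19), and 0 had groups that did not overlap. Mki67, the Ki-67 proliferation antigen, read 580.1 on saline 6 and 588.6 on saline 48, then 551.6, 932.0 and 955.7 on the IL-13 arrays 6, 18 and 48. IL-13 6 lay near the saline arrays, and the other IL-13 arrays were high. The difference was 0.43 ± 0.28 (adjusted p = 0.686 in limma), and 0.69 without IL-13 6. The other Mki67 probe set did not share this pattern, at 228.7, 289.1 and 173.6 on IL-13 6, 18 and 48, with a difference of 0.20.

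Cks1b, a Cdk-binding subunit, had the largest difference of this group. It read 461.7 on saline 6 and 790.2 on saline 48, then 695.7, 856.6 and 993.2 on the IL-13 arrays 6, 18 and 48. Saline 6 was its low array, and the difference of 0.48 ± 0.28 was 0.09 without saline 6. Stmn1, the microtubule regulator stathmin, had the lowest difference. It read 2919.6, 2381.2, 2429.8, 2731.9 and 2031.1 in the same order, overlapping between treatments (-0.15 ± 0.20). Chek1, the replication checkpoint kinase, was brightest on IL-13 6 (320.8, against 146.3 to 231.9 elsewhere) and differed by 0.43 ± 0.28. That difference was 0.10 without saline 48, 0.77 without saline 6 and 0.18 with the floor at the 40th percentile. Top2a, topoisomerase II alpha, differed by 0.17 ± 0.23, Hmgb2, a chromatin protein, by 0.19 ± 0.20 and Ccna2, cyclin A2, by 0.06 ± 0.22.

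**Figure D5:**
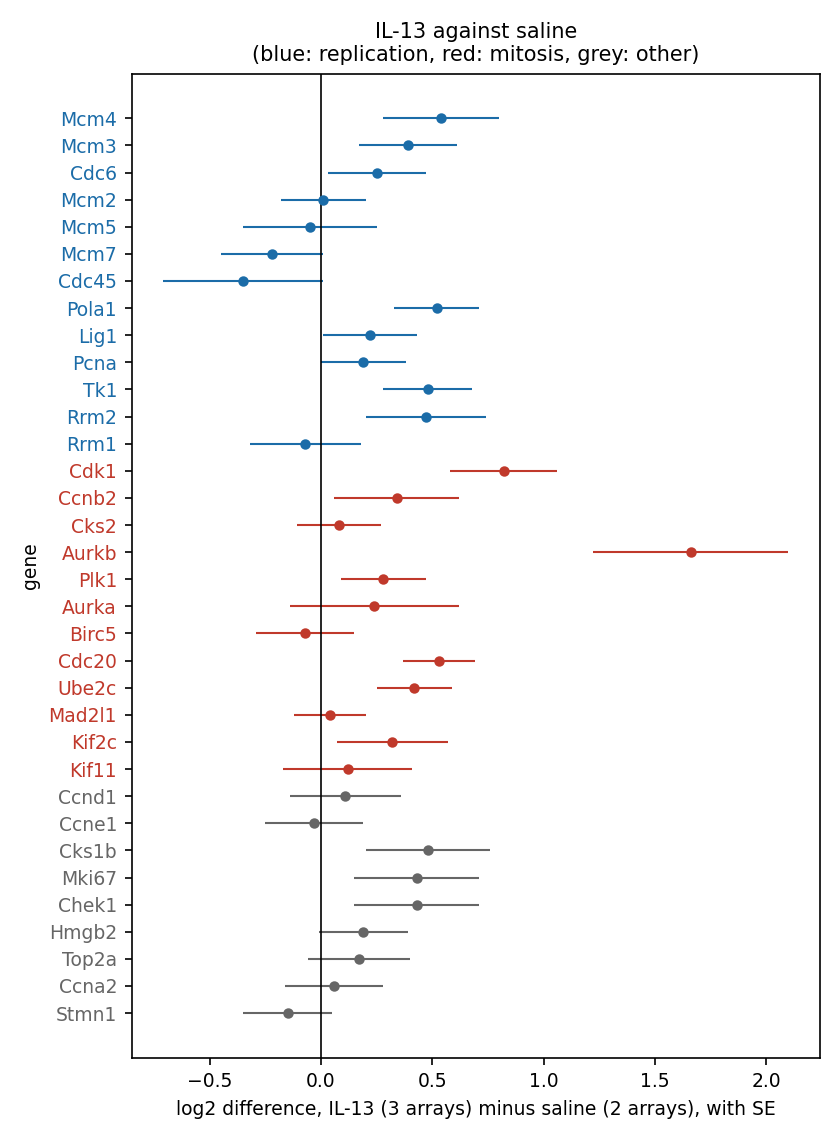
Log2 difference between IL-13 (3 arrays) and saline (2 arrays) on the horizontal axis for each of the 34 tested genes (vertical axis), with bars of 1 SE from limma; blue, red and grey are replication, mitosis and other genes. Aurkb (1.66) and Cdk1 (0.82) lie farthest to the right and Cdc45 (-0.35) farthest to the left.

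Other genes of the pathway, listed with earlier results known, also differed between mitosis and replication. Of 104 such genes 66 were tested, 44 with a higher mean after IL-13 (median 0.11), and 0 passed limma after adjustment, against 0.0334% of all genes. At an unadjusted p under 0.05 there were 9 of 66 (13.6%), against 8.3% of all genes, and Smc4, Btg1 and Ccng2 among them were lower after IL-13. IL-13 18 and 48 were both above the other 3 arrays for 12 of 21 other mitosis genes (57.1%) and 1 of 17 other replication genes (5.9%, Rpa1), against 14.4% of all genes. With no filter these were 14 of 26 (53.8%) and 1 of 26 (3.8%). Their mean exceeded IL-13 6 for 17 of 21 (median 0.22) and for 5 of 17 (median -0.24). On IL-13 6 the centred median was -0.06 for the other mitosis genes and 0.23 for the other replication genes, and on IL-13 48 it was 0.15 and -0.10. These are the same 5 arrays, so they are no second measurement of the arrays.

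For IL-13 against saline, 18 of 21 other mitosis genes had a higher mean (median 0.24), against 54.2% of all genes. Of these 21, 9 had all IL-13 arrays above saline, against 14.0%, and 2 below, against 11.4%. Plk4, the kinase of centriole duplication, had the largest difference at 0.67 ± 0.24 (adjusted p = 0.51 in limma), with 249.0 and 302.3 after saline and 481.8, 516.5 and 334.7 on IL-13 6, 18 and 48. Smc4, a condensin subunit, went the other way at -0.66 ± 0.19 (adjusted p = 0.43), with 1987.8 and 2156.0 after saline and 1259.4, 1542.7 and 1151.7 after IL-13. The groups overlapped for neither gene. Prc1, a spindle midzone protein chosen after its values were seen, followed the pattern of Ccnb2 and Mki67, with 396.0 and 435.1 after saline and 475.6, 736.0 and 761.0 after IL-13 (6, 18, 48).

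The other replication genes were near the background of all genes. Of 17, 10 had a higher mean (58.8%, against 54.2%; median 0.04), 2 had all IL-13 arrays above saline (11.8%, against 14.0%) and 2 had them below (11.8%, against 11.4%). Pold2, a subunit of DNA polymerase delta, differed by 0.43 ± 0.36 and was brightest on IL-13 6 (462.5, against 185.1 to 246.8). Rpa2, of the single-strand binding complex, differed by -0.39 ± 0.21, with 236.7 and 230.7 after saline and 192.2, 209.0 and 142.7 after IL-13.

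None of the transcription factors, pocket proteins or CDK inhibitors of the cycle passed the test. Of 8 E2F, pocket protein and MYB or FOXM1 genes 6 had a higher mean (median 0.15), where 54.2% of all genes did so. Mybl2, or B-Myb, differed by 0.73 ± 0.28 (adjusted p = 0.531 in limma), with 260.0 and 141.0 after saline and 335.6, 280.4 and 337.8 after IL-13. Its other probe set, too dim to be tested, gave -1.01, so the gene's direction is uncertain. Foxm1 differed by 0.54 ± 0.31, with 1131.3 on saline 6, 563.1 on saline 48 and 1079.2, 1329.0 and 1092.5 after IL-13. Saline 48 alone was low, so the groups overlapped.

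Of 9 other cyclins, kinases and phosphatases 6 had a higher mean (median 0.12), where 54.2% of all genes did so. Cdc25c, the phosphatase that activates Cdk1, differed by 0.57 ± 0.27 and read 192.0 and 184.4 after saline and 198.9, 340.0 and 319.3 after IL-13 (6, 18, 48). Cdk7, of the CDK-activating kinase, differed by 0.75 ± 0.45, with saline 6 low (90.9) and the other 4 arrays at 252.3 to 305.2. Of 4 CDK inhibitors 3 had a lower mean (median -0.16, range -0.25 to 0.01). The largest difference was that of Cdkn2d (-0.25 ± 0.17), followed by Cdkn2c (-0.18 ± 0.23). Of 7 growth arrest genes 4 had a lower mean (median -0.12) and 3 a higher mean. The higher ones were Gas1 (0.12 ± 0.26), Ccng1 (0.06 ± 0.18) and Gadd45a (0.04 ± 0.21). Btg1 (-0.54 ± 0.21) and Ccng2 (-0.49 ± 0.18), both tied to cell cycle exit, lay below both saline arrays on all IL-13 arrays, where 11.4% of all genes did so.

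Markers of other cell types also differed between these arrays. The 18 T cell and thymocyte genes with a probe set summed to 18247 and 26301 on saline 6 and 48. On IL-13 6, 18 and 48 they summed to 7018, 13460 and 5730. Of the 18, 17 had a lower mean after IL-13, where 54.2% of all tested genes had a higher mean. For 12 of the 18, all IL-13 arrays lay below both saline arrays, where 11.4% of all tested genes did so. None of the 18 was below the floor on all arrays. The sum was lower on each IL-13 array than on either saline array, and among the IL-13 arrays it was highest on IL-13 18. The 7 B cell genes summed to 8123 on saline 6 and to 1080 to 2852 elsewhere. The 8 macrophage genes summed to 15066 to 18887 after saline and 15079 to 17924 after IL-13, and the 6 erythroid genes to 2735 to 4803 and 2933 to 5003. The 7 heart muscle genes summed to 33075 on saline 6, 23939 on IL-13 18 and 11356 to 18204 elsewhere. Actc1 was bright on every array (9834.7 to 16254.2). All other genes of this list were brighter on saline 6 and IL-13 18 than elsewhere. Myl7, for example, read 7554.2 on saline 6 and 3321.5 on IL-13 18, against 129.9 to 224.8. The 5 lung epithelial genes summed to 44967 on IL-13 18, against 23007 to 32666, with Sftpc making the difference, while Scgb1a1 was highest on IL-13 6. The part of these cell types in the cell cycle values was not tested.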

How the data were processed

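Total RNA of 5 arrays was analysed. The authors deposited 1 table of linear intensity values for 12488 probe sets. Software, background correction and build: not given in the sources used here. Scaling had been applied before deposit, with 2% trimmed means of 800.39 to 800.47. After removal of 66 control probe sets, 12422 remained, of which 10833 carried 1 gene symbol, 396 several and 1193 none, and 10817 symbols were updated by gene number to those of RefSeq.

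Each array was rescaled so that the 2% trimmed means were equal. A floor was set at the pooled 20th percentile (55.27) before log2 transformation, and 7811 probe sets whose intensity exceeded the pooled 40th percentile (210.2) on 2 or more arrays were tested. IL-13 was compared with saline by limma 3.58.1 in R 4.3.3 (lmFit, eBayes, 3 residual and 3.46 prior degrees of freedom) in a two-sided test, adjusted after Benjamini and Hochberg over all of them, at a threshold of 0.05. The fit was tested on simulated data. SE is the moderated standard error. Pairs of 1 array against 1 have no test.

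The members, lists and tests were chosen with earlier results of these data known. Every member is named. Values on every array are given where no IL-13 array overlapped the saline arrays, where the log2 difference reached 0.5, and for the largest and smallest difference of each role. Of other pathway genes the 2 with the largest difference in each list are named. Alternatives were other normalizations, floors, filters, fold thresholds and controls, all probe sets of a gene, and each array left out. The labels do not state separate animals. The p-values therefore reflect only how much these arrays spread, which may be technical, and the number of arrays limits the precision. Plots used matplotlib 3.10.9.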

Additional observations from a re-analysis of the deposited data

Results flagged for a closer look

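Aurka and Kif11 had differences of opposite sign at title numbers 6 and 48, which do not mark pairs by the labels. For Aurka, IL-13 minus saline was -0.64 on the log2 scale at title number 6 and 0.85 at 48. For Kif11 it was -0.59 and 0.69. Other members also changed sign without reaching 1.5-fold both ways, among them Mcm5 (-0.63 and 0.46), Top2a (-0.35 and 0.54) and Ccna2 (-0.40 and 0.31). Each value is 1 array against 1, and the difference between title numbers was not tested. With 2 saline and 3 IL-13 arrays, no group was large enough for a test of outlying arrays.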

How the results depend on the processing

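In each of the settings tried, limma called 0 of the tested members at an adjusted p under 0.05. The lowest adjusted p of any member was 0.125 (without saline 48) to 0.717 (without IL-13 18). Of 34 members, 22 kept the sign of their difference throughout and 12 did not. With the filter at the 60th percentile, 15 members were tested, 7 of replication and 2 of mitosis. The members with a higher mean then numbered 11 of 15 in place of 27 of 34, those with all IL-13 arrays above saline 2 of 15 (13.2% of all genes) in place of 8, those 2-fold higher 0 at title numbers 6 and 48 and on IL-13 18, and mitosis and replication members with IL-13 18 and 48 above the rest 1 and 0 in place of 7 and 1. The replication median on IL-13 18 was then 0.16 and the excess of the mitosis median over it 0.51, resting on 2 mitosis genes, in place of 0.33 and 0.18. With no filter, 2 replication members had IL-13 18 and 48 above the rest. With the floor at the 40th percentile, 0 members were 2-fold higher on IL-13 18. At a fold of 1.5, members higher numbered 2 at title number 6, 4 at 48 and 6 on IL-13 18, and 1 was lower at 6. With the mean of all probe sets of a gene, 2 were 2-fold higher at 6. With the other saline array as control, 0 were 2-fold higher at 6, and the replication median at 48 was -0.17.

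Leaving out 1 array at a time gave 0 to 5 members with all IL-13 arrays below saline (5 without saline 48) and 10 to 19 above (19 without saline 6, 16 without IL-13 6). It gave 1 to 2 members 2-fold higher on IL-13 18 and 1 to 5 replication members with IL-13 18 and 48 above the rest. The median difference ran from 0.15 to 0.36 for all members, 0.13 to 0.37 for replication and 0.18 to 0.47 for mitosis.

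Signs turned for genes with small differences. Mcm2 was -0.02 with quantile normalization, and Mcm5 was 0.23 with the mean of all probe sets. Leaving out 1 array gave Mcm2 -0.11 to 0.14, Ccna2 -0.14 to 0.25, Ccne1 -0.18 to 0.11, Mcm5 -0.55 to 0.45, Top2a -0.08 to 0.43, Ccnd1 -0.14 to 0.36, Rrm1 -0.28 to 0.04, Kif11 -0.14 to 0.39, Birc5 -0.38 to 0.23, Cks2 -0.01 to 0.18, Hmgb2 -0.05 to 0.44 and Aurka -0.01 to 0.61. With title number as a replicate block over the 4 arrays of 6 and 48, 0 members were called, the median of members was 0.17, and Ccna2 (-0.04), Ccne1 (0.06) and Mcm2 (-0.06) changed sign. The arrays share only a number, and the labels do not pair them. The causes of these changes were not tested.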
